A study of Mus musculus with 12 samples.

Results

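The comparison described here is high fat diet against chow in mouse liver libraries labelled Hnf4a liver knockout. It uses 6 of the 12 libraries of the series, taken by their sample titles, and all genes with a mean of at least 0.5 FPKM (fragments scaled to gene length and to library size) over these 6. The KO HFD group holds 3 libraries from mice labelled liver knockout and given a high fat diet, and the KO chow group holds 3 libraries with the same genotype label and vivarium chow, the standard diet of the animal facility. The label of an Hnf4a knockout in the liver is thus shared by both groups, so diet is the labelled difference. Per the labels the 3 libraries of each group are biological replicates, so p-values measure the spread between those samples. Groups labelled wild type on high fat diet (WT HFD) and on chow (WT chow), also 3 libraries each, are cited only as side-by-side values. In the sources used here nothing gives the Cre driver or other means of the knockout, the strain, age or sex of the mice, the make-up of the diets or the time on them.

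Hnf4a encodes a nuclear receptor that maintains the expression programme of hepatocytes, the main cell of the liver. A fat-rich diet delivers fatty acids and, often, cholesterol to the liver. When sterols are plentiful, Insig proteins hold the Scap protein and the transcription factor SREBP2 (encoded by Srebf2) in the endoplasmic reticulum, and the genes of cholesterol synthesis and LDL uptake are transcribed less. The related SREBP1 and the sugar-responsive factor ChREBP (Mlxipl) drive fatty acid synthesis, and PPAR alpha (Ppara) drives fatty acid breakdown.

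Hnf4a transcript did not follow the knockout label. It stood at 108, 98.8 and 138 FPKM in KO HFD 1 to 3 and at 158, 132 and 129.9 FPKM in KO chow 1 to 3. The 2 groups overlapped, with means of 115 ± 20.5 and 140 ± 15.8 FPKM (SD, n = 3 each; exact two-sided permutation p = 0.3, where 0.1 is the smallest that 3 against 3 allows). Libraries labelled WT HFD held 133, 116 and 120.2 FPKM. Those labelled WT chow held 126, 75.8 and 0.0973 FPKM, and WT chow 2 and 3 stood apart from the rest of the series. Values summed over a gene cannot show a deletion of part of it, so whether the label holds was not tested. The knockout label is used below only as a name. Total reads on genes were 17654043 to 19168629 in KO HFD and 15705196 to 20311766 in KO chow, and genes of the mitochondrial genome took 5.14% to 6.26% of reads in the 6 libraries. KO HFD 1 stood apart: its correlation with the other 5 over the tested genes on the log2(FPKM + 1) scale was 0.928 to 0.960, against 0.961 to 0.983 between the others. Hepatocyte markers were abundant in all 6 libraries, with a summed level of 39311 to 58635 FPKM in KO HFD and 51909 to 53757 FPKM in KO chow, and 0 of 11 passed the test described below (1 at an unadjusted p under 0.05). Y-linked genes were detected in all 6 libraries and Xist did not exceed 0.408 FPKM.

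Of 11848 genes tested with limma on log2(FPKM + 1), 33 passed a Benjamini-Hochberg adjusted p of 0.05, which is 0.279% of those tested. Of these, 26 were higher in KO HFD (0.219%) and 7 lower (0.0591%). Most genes that rose encode digestive enzymes and defensins: Ctrb1, Prss2, Try4, Try5, Pnlip, Cela3b and Clps of the pancreatic acinar cell and Defa21, Defa22 and Defa24 of the intestinal Paneth cell. Lcn2, a siderophore-binding protein of the acute phase, rose with them. The genes that fell were Cyp2c55, Krt14, Malat1, Krt5, Camk1d, Cyp2u1 and Ern1. In all 33 the 3 KO HFD values lay on one side of the 3 KO chow values, and 18 of them had no read in KO chow. The tested genes held 35 without a read in KO chow, so 18 of those 35 passed. Of all tested genes 3810 (32.2%) had groups that did not overlap, 1199 with KO HFD above (10.1%) and 2611 with KO HFD below (22.0%), and 3004 had an unadjusted p under 0.05. The adjusted p was 0.049 for the last gene inside the threshold, Defa21, and 0.056 for the first outside it, Orm3, an acute phase glycoprotein at 27.8, 27.1 and 32.1 FPKM in KO HFD and 6.49, 8.85 and 13.5 FPKM in KO chow.

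**Figure D1:**
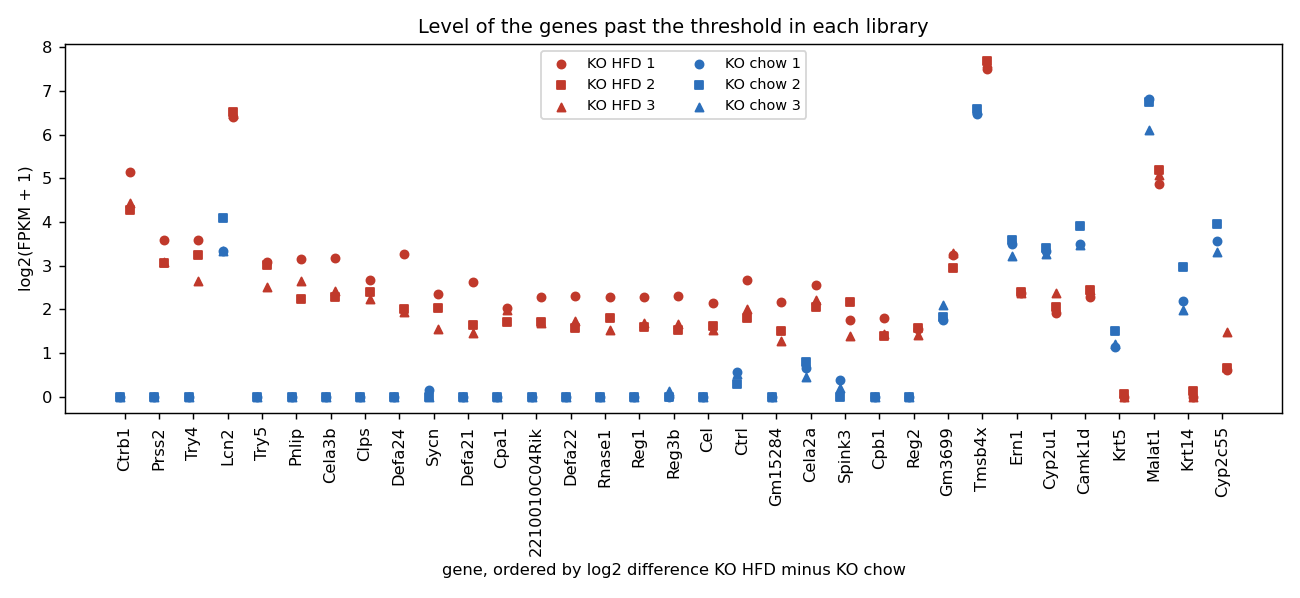
Level of each of the 33 genes past the threshold, as log2(FPKM + 1) on the vertical axis, with 1 point per library (red, KO HFD; blue, KO chow; the marker shape gives the replicate number). Genes are ordered from the highest to the lowest log2 difference; the 18 genes without a read in KO chow have all 3 blue points at 0.

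The count depended on how the values were scaled. The KO HFD libraries had summed FPKM of 617994 to 639696 and the KO chow libraries of 524856 to 581858. Rescaling every library to the same total (TPM) moved the median log2 difference of all genes from −0.07 to −0.24 and gave 861 calls (7.27% of tested genes), 63 higher (0.532%) and 798 lower (6.74%) in place of 26 and 7. Median-of-ratios scaling moved that median to 0.02 and gave 27 higher and 3 lower. A fit of 9 libraries that added WT HFD to the estimate of spread left each log2 difference as it was and gave 1025 calls (8.65%), 213 higher (1.8%) and 812 lower (6.85%). Leaving out single libraries gave 10 calls without KO chow 1, 11 without KO chow 2 and 81 without KO HFD 3 (0.678%; 47 higher, 0.393%, and 34 lower, 0.284%). None of the 33 genes changed sign in any of 21 alternatives, and Ctrb1, Prss2, Try5, Clps, Try4 and Pnlip passed in all 21. Lcn2 passed in 18, Cyp2c55 and Krt14 in 17, and Malat1, Tmsb4x and Ern1 in 9, 9 and 8. Leaving out 1 library never ended the call on Lcn2, and ended those on Cyp2c55 and Krt14 only without KO chow 1 (adjusted p = 0.0569 and 0.0675). The calls on Krt5, Camk1d, Cyp2u1, Tmsb4x, Reg1, Reg3b, Defa21, Defa22 and Defa24 ended without any 1 of the KO chow libraries, with adjusted p of 0.0531 to 0.230 there.

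In the pairs of values given below the libraries of KO HFD come first and those of KO chow second, unless a gene is said to rise or fall from one to the other. Differences also followed gene length. The tested genes were split into 5 classes of equal size by length. The median log2 difference was 0.34 in the shortest class (up to 1508 bases) and −0.38 in the longest (from 4656 bases), with 0.07, −0.07 and −0.20 between. In the shortest class 29.7% of genes had all KO HFD values above all KO chow values, and in the longest 51.1% had them all below. All 3 KO HFD libraries showed this slope, and KO chow 3 and the 3 WT HFD libraries showed smaller ones of the same sign. Of the 26 genes that rose, 22 were in the shortest class, and of the 7 that fell, 4 were in the second and 3 in the longest. When a smooth trend of each library with gene length was subtracted, 25 genes passed, 12 higher and 13 lower, of which 16 were among the 33.

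**Figure D2:**
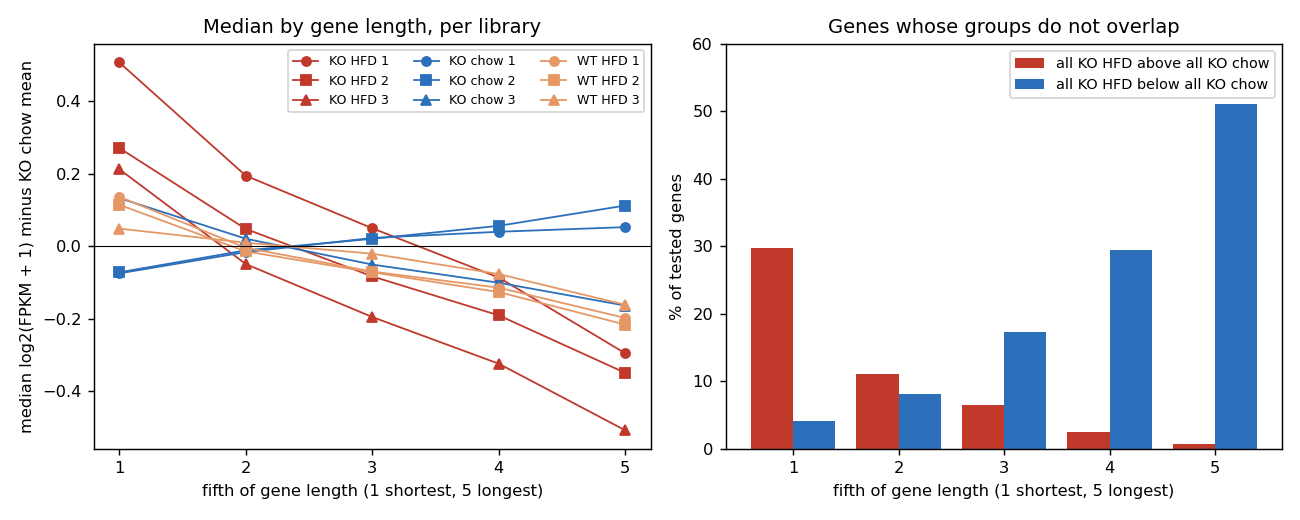
Left, median of log2(FPKM + 1) minus the KO chow mean in 5 classes of gene length, with 1 line per library of KO HFD, KO chow and WT HFD. Right, percentage of tested genes in each class whose 3 KO HFD values all lie above (red) or all below (blue) the 3 KO chow values; the red bars fall from 29.7% to 0.717% and the blue bars climb from 4.09% to 51.1%.

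Genes of the pancreatic acinar cell, which makes and secretes the digestive enzymes, were 14 of the 26 genes that rose. Of 24 acinar markers, 17 passed the filter on low values, 14 rose (0.219% of all genes did), and in 16 the groups did not overlap, all with KO HFD above (10.1% of all genes). The count that rose was 8 without any 1 of the KO chow libraries and 10 with the length trend subtracted. Members with no read in KO chow can pass this filter only through KO HFD, so the count describes the genes that passed and not all markers. The same holds below for markers absent from KO HFD. For members without a read in KO chow the nearer background is 18 of 35, the tested genes without such a read that rose. Ctrb1, chymotrypsinogen B1 (ENSMUSG00000031957, chr8:111686510-111691010, minus strand, GRCm38), stood at 34.3, 18.5 and 20.6 FPKM in KO HFD and had no read in KO chow. Its 1188 reads against a floor of 3 over the group made it at least 377-fold higher, with a log2 difference of 4.62 ± 0.23 (SE; limma adjusted p = 0.000244). KO HFD 1 was the highest of the 3, as for each of the acinar genes that rose. Prss2, a trypsinogen, stood at 11.03, 7.36 and 7.44 FPKM and was at least 122-fold higher (adjusted p = 0.000411). Its relatives Try4 and Try5 lie on the same chromosome as Prss2, chromosome 6, and stood at 11.1, 8.47 and 5.23 FPKM and 7.51, 7.03 and 4.67 FPKM. Reads of such closely related genes may be shared by the counting. All 3 trypsinogens were without a read in KO chow.

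The proteins of fat digestion had the same pattern. Pnlip, pancreatic lipase, stood at 7.91, 3.72 and 5.26 FPKM in KO HFD (at least 145-fold higher, adjusted p = 0.003). Clps, the colipase that anchors it to fat droplets, stood at 5.42, 4.27 and 3.71 FPKM (at least 42.7-fold, adjusted p = 0.00112). Cela3b, an elastase, Cpa1, a carboxypeptidase, and Rnase1, the pancreatic ribonuclease, also had no read in KO chow. Sycn, syncollin of the zymogen granule, had 1 read there. Cela1, the most abundant member at 66.9, 73.7 and 63.3 FPKM in KO HFD and 39.2, 43.3 and 67.5 FPKM in KO chow, did not pass (adjusted p = 0.221). Amy2a5, an amylase gene of this list, was without a read in all 6 libraries, and Ptf1a, the acinar transcription factor, reached only 0.0346 FPKM in KO HFD 2 and 0 elsewhere. Islet markers such as insulin were near 0: Ins2 stood at 0.284, 0.0895 and 0.194 FPKM in KO HFD and had no read in KO chow, and none of the 8 passed the filter.

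Several marker genes of Paneth cells, the defensin-secreting cells at the base of intestinal crypts, rose in the same libraries. Of 24 markers of Paneth and other intestinal cells 10 passed the filter and 5 rose (0.219% of all genes did): Defa22, Reg1, Reg3b, Defa24 and Defa21. None of these 5 passed with the length trend subtracted (adjusted p of 0.0725 to 0.124). Members without a read in KO chow again passed the filter only through KO HFD, and 18 of 35 such tested genes rose. Defa24, an antimicrobial peptide gene of the cluster on chromosome 8, stood at 8.56, 2.99 and 2.84 FPKM in KO HFD and had no read in KO chow (at least 34.9-fold higher, adjusted p = 0.0336). KO HFD 1 held the highest level of each of these 5. Reg1, a secreted lectin of pancreas and gut, stood at 3.87, 2.04 and 2.21 FPKM against no read. Tff3, a goblet cell peptide, overlapped between the groups at 10.96, 7.196 and 0.919 FPKM and 1.38, 10.8 and 8.27 FPKM, and Fabp2, a fatty acid binding protein that was the most abundant member, stood at 102, 133 and 65.04 FPKM and 44.98, 33.9 and 46.6 FPKM without passing (adjusted p = 0.0839). Reg2, which is outside the naming rule and was picked after its values were seen, rose from no read to 1.91, 1.96 and 1.64 FPKM.

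Markers of heart muscle and of stratified epithelium, the layered lining of skin and oesophagus, ran the other way. Krt14 and Krt5, the paired keratins of the basal layer, fell. Krt14 stood at 0, 0.0922 and 0 FPKM in KO HFD and 3.54, 6.78 and 2.92 FPKM in KO chow, 3 reads against 409 (log2 difference −2.33 ± 0.26, adjusted p = 0.011). Krt5 stood at 0, 0.0476 and 0 FPKM and 1.19, 1.84 and 1.31 FPKM (adjusted p = 0.0336). Both keratins were thus near 0 in all KO HFD libraries and present in all KO chow libraries. Of 13 markers of this tissue 7 were tested and 2 fell (0.0591% of all genes did). In 4 all KO HFD values lay below all KO chow values, against 22.0% of all genes. Krt10, the most abundant member that did not pass, had a log2 difference of −0.10 (adjusted p = 0.791). Of 8 heart markers tested 0 passed (7 at an unadjusted p under 0.05), while in 7 all KO HFD values lay below all KO chow values, against 22.0% of all genes. Myl2, the ventricular myosin light chain, was without a read in KO HFD and at 1.74, 2.66 and 6.73 FPKM in KO chow (adjusted p = 0.0637), and Myh6, the atrial and adult mouse heart myosin, at 0 and 1.49, 0.923 and 2.91 FPKM (adjusted p = 0.0754).

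Acinar genes were not a feature of all high fat libraries. Summed over the acinar list without Cela1, the level was 136, 74.9 and 72.1 FPKM in KO HFD, 0.957 to 1.39 FPKM in KO chow and 0.849 to 0.883 FPKM in WT HFD. The library labelled WT chow 2 held 74.8 FPKM and WT chow 1 held 6.94 FPKM. Besides KO HFD, 1 library labelled chow thus held a like sum, but not the same set of genes. Ctrb1, Prss2, Try4, Clps and Pnlip stood at 0 FPKM in WT chow 2. Try5, Cela3b and Rnase1 stood there at 1.33, 1.25 and 1.97 FPKM. Summed heart markers were 2.44 to 3.30 FPKM in KO HFD, 8.20 to 27.5 FPKM in KO chow and 13.2 to 40.1 FPKM in WT HFD. In the stratified epithelium list WT HFD 2, at 2.50 FPKM, lay within the range of KO HFD, 2.03 to 6.19 FPKM. Cela1 and Fabp2 were left out of these sums after their values were seen, because their level in every library would hide the rest. In bulk tissue, fewer cells of a type and less RNA per cell cannot be told apart. The part that tissue other than liver has in the calls on digestive enzymes, defensins and keratins was not tested.

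**Figure D3:**
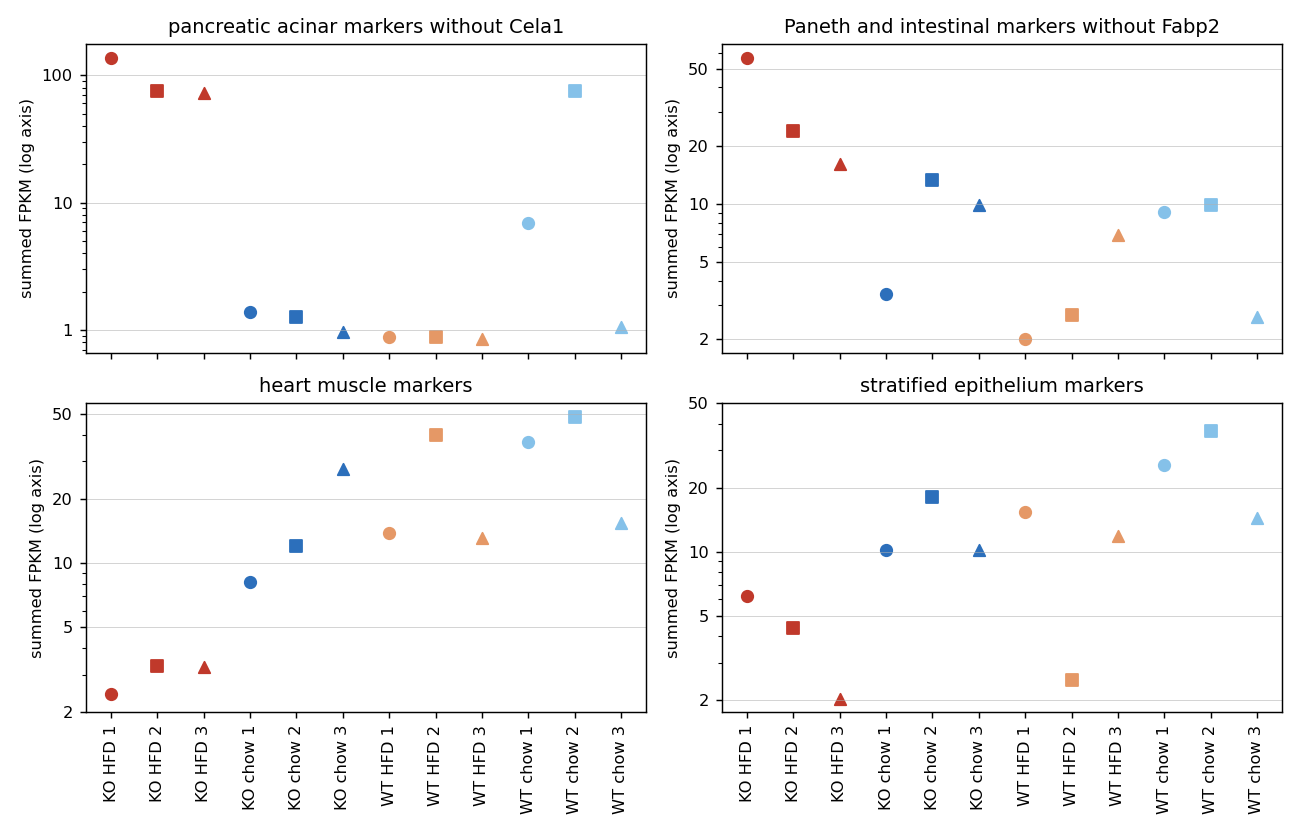
Summed FPKM (log axis) of 4 marker lists in each of the 12 libraries, coloured by labelled group; marker shape gives the replicate number. The acinar sum was high in the 3 KO HFD libraries and in WT chow 2, though not from the same set of genes. Paneth and intestinal markers were highest in KO HFD 1, and heart markers were lowest in the 3 KO HFD libraries.

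Among acute phase genes, which hepatocytes switch on under inflammatory cytokines, Lcn2 rose. Lcn2 (ENSMUSG00000026822, chr2:32384633-32387797, minus strand) stood at 83.6, 91.2 and 87.4 FPKM in KO HFD and 9.15, 15.9 and 9.04 FPKM in KO chow, which was 7.68-fold higher on the means (87.4 ± 3.81 against 11.4 ± 3.96 FPKM, SD, n = 3; log2 difference 2.88 ± 0.22 SE, adjusted p = 0.00151). The KO HFD values were close together and far above KO chow, whereas WT HFD ran from 2.44 to 99.2 FPKM. WT chow 1 to 3 held 6.37, 159 and 0.485 FPKM, so WT chow 2 lay above every KO HFD library. Of 27 acute phase and iron genes 1 passed, and in 9 all KO HFD values lay above KO chow, against 10.1% of all genes. The list median was 0.39, or 0.13 after the length trend was subtracted, against −0.07 over all genes.

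The serum amyloid genes spread widely within KO HFD. Saa1, a lipoprotein-bound acute phase protein, stood at 374, 576 and 2429.5 FPKM in KO HFD and 104, 135 and 104 FPKM in KO chow, and Saa2 at 198, 301 and 887 and 56.2, 59.1 and 44.7 FPKM. KO HFD 3 was by far the highest for both, and neither passed (adjusted p = 0.0785 and 0.0732). Hp, the haemoglobin scavenger haptoglobin, stood at 3915, 4032 and 5744 FPKM and 2328, 2857 and 2643 FPKM (adjusted p = 0.125). Hamp2, a gene of the hepcidin family, reached 1622 FPKM in KO HFD 1, while the other 5 libraries held 9.33 to 59.5 FPKM. Ftl1, a ferritin chain and the most abundant member, overlapped between the groups.

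Markers of Kupffer cells, the resident liver macrophages, stood higher in KO HFD without any of the 13 tested passing (9 at an unadjusted p under 0.05). In 8 of 13 the groups did not overlap, all with KO HFD above (10.1% of all genes did so). The list median was 0.79, and 0.66, 0.70 and 0.86 in KO HFD 1 to 3, or 0.53 with the length trend subtracted. C1qb, a complement C1q chain made by macrophages, stood at 22.5, 27.3 and 31.7 FPKM against 15.1, 13.7 and 11 FPKM (adjusted p = 0.0754). Lyz2, macrophage lysozyme, stood at 42.5, 69.3 and 62.9 FPKM against 29.9, 24.9 and 18.7 FPKM (adjusted p = 0.0754). In both, every KO HFD value lay above every KO chow value. Clec4f, specific to Kupffer cells, overlapped by a small margin at 20.6, 16.7 and 26.2 and 17.1, 13.1 and 9.35 FPKM. Marco, a scavenger receptor, did not order by diet, with 0.458, 0.786 and 42.3 FPKM in KO HFD and 16.5, 1.33 and 9.36 FPKM in KO chow. Not all macrophage markers thus followed the diet. The whole list summed to 185 to 297 FPKM in KO HFD and 105 to 151 FPKM in KO chow. Tmsb4x, the actin-binding thymosin beta 4, is in no list and was picked after its values were seen. It rose from 87.3, 95.1 and 93.4 FPKM to 181, 206 and 199.9 FPKM (2.13-fold, adjusted p = 0.0422). Tmsb4x did not pass with the length trend subtracted (adjusted p = 0.164). It also failed without any 1 library other than KO HFD 1 (0.0696 to 0.230).

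Among enzymes of drug and steroid metabolism Cyp2c55 fell. Cyp2c55 (ENSMUSG00000025002, chr19:39007019-39042693, plus strand), a cytochrome P450 of the Cyp2c family, stood at 0.525, 0.575 and 1.79 FPKM in KO HFD and 10.8, 14.4 and 9.0 FPKM in KO chow, 11.8-fold lower (log2 difference −2.69 ± 0.27, adjusted p = 0.00717). It stood at 0.393, 0.258 and 0.513 FPKM in WT HFD and at 9.43, 0.133 and 0 FPKM in WT chow 1 to 3, so that WT chow 2 and 3 were as low as WT HFD. Of 24 genes of this list 1 passed, and in 10 all KO HFD values lay below KO chow, against 22.0% of all genes. The list median was −0.50. Cyp2u1, a fatty acid hydroxylase of the P450 family outside the list, fell from 9.11, 9.65 and 8.58 FPKM to 2.74, 3.13 and 4.204 FPKM (adjusted p = 0.0336).

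Several large differences did not pass, and in these KO HFD 3 lay near chow. Cyp3a11, a major steroid and drug hydroxylase, stood at 67.2, 194 and 1855 FPKM in KO HFD and 3333, 2087 and 3546 FPKM in KO chow (log2 difference −3.32 ± 1.0, adjusted p = 0.109). Cyp2b10, the classic target of the xenobiotic receptor CAR, stood at 0.0864, 0.245 and 3.49 FPKM and 7.56, 6.83 and 7.38 FPKM (adjusted p = 0.0817), and Cyp2c29 at 60.3, 70.8 and 534 FPKM and 659, 701 and 539 FPKM. In each the groups did not overlap, and KO HFD 3 was the nearest to KO chow. Nr1i3, which encodes CAR itself, overlapped between groups at 14.96, 41.6 and 31.3 FPKM and 29.6, 27.1 and 25.2 FPKM. Cyp2e1, the most abundant member, stood at 2073, 3597 and 3769 FPKM and 3867, 4335 and 4198 FPKM (adjusted p = 0.383).

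The genes of cholesterol synthesis and uptake stood lower in KO HFD, and none passed the test (22 of 32 at an unadjusted p under 0.05). Across the mevalonate pathway, the sterol ring enzymes and the sensing and uptake genes, 32 of 33 members were tested, Npc1l1 falling under the filter. In 22 of the 32 (68.8%) all KO HFD values lay below all KO chow values, against 22.0% of all genes. The share was 23 of 32 on TPM, where the background was 31.4%, and 22 of 32 with the length trend subtracted, where it was 18.1%. It was 25 of 32 without KO HFD 1, where it was 33.4%. In each of these settings the share was above that of all genes. The list medians were −1.02, −1.23 and −0.73. The number that passed depended on the setting. In the fit of 9 libraries 12 of the 32 passed (6.85% of all genes were called lower), and on TPM 19 did (6.74%). Without KO HFD 3, which lay nearest to chow in the mevalonate and ring enzyme lists, 13 of the 32 passed (0.284% of all genes). With median-of-ratios scaling, quantile normalization, the fit of 12 libraries or the length trend subtracted 0 passed. Without KO HFD 2 or any 1 KO chow library 0 passed as well.

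RefSeq promoter windows on GRCm38.p6 were matched for 24 of the 33 genes, 30 windows of 250 bases up to the transcription start. Shown, because these 3 genes stand at an early, a middle and a late step of synthesis and their windows overlap no annotated exon, are Hmgcs1 (chr13:119690101-119690350, plus strand), Mvd (chr8:122443423-122443672, minus strand) and Sc5d (chr9:42264301-42264550, minus strand). Capitals mark matches, on either strand, to TCACNCCAC (a sterol response element), ATTGG (the inverted CCAAT box bound by NF-Y) or CACGTG (an E-box); none overlaps another in these windows.
Hmgcs1: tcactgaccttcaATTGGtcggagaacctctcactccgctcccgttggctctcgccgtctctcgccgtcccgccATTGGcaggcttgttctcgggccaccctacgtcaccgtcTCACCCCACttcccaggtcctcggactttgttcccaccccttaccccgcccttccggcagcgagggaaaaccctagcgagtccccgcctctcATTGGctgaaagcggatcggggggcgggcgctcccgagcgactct
Mvd: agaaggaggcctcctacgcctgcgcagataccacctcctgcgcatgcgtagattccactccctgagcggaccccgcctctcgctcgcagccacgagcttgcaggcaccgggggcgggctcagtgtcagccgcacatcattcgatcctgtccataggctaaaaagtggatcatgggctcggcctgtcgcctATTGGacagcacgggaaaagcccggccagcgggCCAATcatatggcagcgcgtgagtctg
Sc5d: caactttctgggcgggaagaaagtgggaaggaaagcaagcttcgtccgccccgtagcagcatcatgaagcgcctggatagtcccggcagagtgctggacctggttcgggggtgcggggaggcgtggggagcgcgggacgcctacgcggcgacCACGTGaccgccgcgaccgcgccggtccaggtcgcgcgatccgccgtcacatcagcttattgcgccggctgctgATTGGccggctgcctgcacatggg
The Hmgcs1 window holds the sterol response element from base 137 to base 129 upstream of the start and 3 inverted CCAAT boxes, Mvd holds 2 inverted CCAAT boxes, and Sc5d holds 1 with an E-box. ATTGG was found in 20 of the 30 windows (66.7%) and in 33.9% of all 32851 windows, CACGTG in 5 (16.7%) against 6.02%, and TCACNCCAC in 1 (3.33%) against 1.05%. Such shares were not particular to sterol genes. In windows of the circadian clock, fatty acid synthesis and fatty acid oxidation lists ATTGG was found in 68.2%, 60% and 35%, and CACGTG in 27.3%, 10% and 5%. A match is a description of the letters in the window and not of binding.

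Of the sensors, Srebf2 stood at 5.89, 5.69 and 7.95 FPKM in KO HFD and 13.6, 14.2 and 8.84 FPKM in KO chow, and Insig1, itself a sterol-repressed gene, at 39.6, 64.5 and 64.2 and 98.96, 134 and 98.8 FPKM. Hmgcs1, the HMG-CoA synthase, stood at 30.4, 15.2 and 27.7 FPKM and 68.6, 93.5 and 61.4 FPKM (log2 difference −1.61 ± 0.28, adjusted p = 0.0753). In these 3 genes every KO HFD library lay below every KO chow library. Idi1, the isomerase that makes dimethylallyl diphosphate, had the widest difference of the pathway, at 1.09, 1.31 and 7.82 FPKM and 16.2, 21.4 and 14.96 FPKM (−2.39 ± 0.49, adjusted p = 0.0754). Mvd, the decarboxylase a step before it, stood at 3.63, 1.69 and 7.98 FPKM and 9.67, 12.8 and 8.89 FPKM. Fdps, the farnesyl diphosphate synthase and the most abundant member, overlapped at 48.5, 26.2 and 155 FPKM and 100.2, 171 and 142 FPKM, with KO HFD 3 among the chow values.

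Beyond squalene the same 2 libraries, KO HFD 1 and 2, were the lowest. Sqle, squalene epoxidase, stood at 1.31, 1.12 and 8.04 FPKM in KO HFD and 11.9, 16.3 and 12.2 FPKM in KO chow (adjusted p = 0.0871). Cyp51, the lanosterol demethylase, stood at 5.57, 5.53 and 26.4 FPKM and 39.7, 38.96 and 35.1 FPKM (adjusted p = 0.0921). The median of this list was −1.94, −1.34 and −0.43 in KO HFD 1 to 3. Sc5d, the late sterol desaturase, was low in all 3, at 36.8, 61.03 and 64.5 FPKM against 152, 159.5 and 128 FPKM (−1.46 ± 0.24, adjusted p = 0.0637), and had the smallest p of the 32. Ebp, the sterol isomerase, showed no such difference, at 124, 122 and 149 FPKM and 119, 126 and 128 FPKM (0.08 ± 0.17).

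For the sensing and uptake list the medians were −0.79, −0.64 and −0.64 in KO HFD 1 to 3. Stard4, a cytosolic cholesterol carrier, stood at 7.9, 11.4 and 17.3 FPKM and 39, 30.7 and 32.5 FPKM (−1.47 ± 0.26, adjusted p = 0.0753). The groups did not overlap for it. Libraries labelled WT HFD held 0.881, 2.32 and 2.91 FPKM of Idi1 and 0.971, 0.973 and 2.46 FPKM of Sqle, and WT chow 1 to 3 held 10.6, 0.158 and 3.85 FPKM of Idi1 and 5.37, 1.31 and 14.2 FPKM of Sqle. The WT chow libraries thus lay on both sides of the WT HFD values for Idi1. For export, Abca1, which loads cholesterol onto HDL, stood at 9.202, 9.51 and 6.17 FPKM and 14.9, 20.3 and 12.6 FPKM (adjusted p = 0.0904), while Abcg5 and Abcg8, which pass sterols into bile, overlapped between the groups. Of the 10 export and LXR genes 0 passed (1 at an unadjusted p under 0.05) and the list median was 0.03 (−0.17 on TPM).

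**Figure D4:**
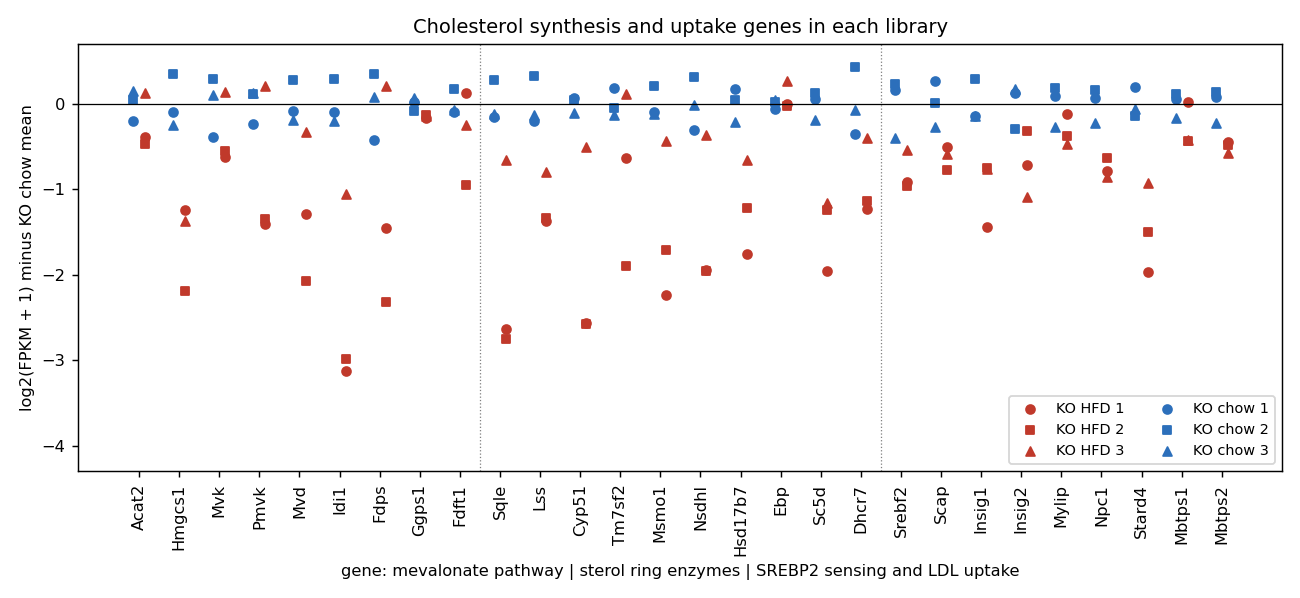
Log2(FPKM + 1) minus the KO chow mean for 28 of the 32 tested genes of cholesterol synthesis, sensing and uptake, 1 point per library (red, KO HFD; blue, KO chow; the marker shape gives the replicate number). KO HFD 1 and 2 lie lowest for most enzymes, and KO HFD 3 (triangles) lies closer to the chow values.

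Fatty acid synthesis genes showed a like order with smaller differences. Of 15 tested 0 passed (10 at an unadjusted p under 0.05), in 9 all KO HFD values lay below KO chow (22.0% of all genes), and the median was −0.63. Fasn, the fatty acid synthase, stood at 20.1, 10.2 and 19.5 FPKM in KO HFD and 30.4, 43.9 and 30.7 FPKM in KO chow (adjusted p = 0.0889), and Acly, which supplies its acetyl-CoA, at 29.9, 26.3 and 31.3 and 41.2, 52.3 and 48.1 FPKM (adjusted p = 0.0871). Scd1, the stearoyl-CoA desaturase and the most abundant member, stood at 223, 235 and 161 FPKM and 682, 977 and 346 FPKM (−1.59 ± 0.36, adjusted p = 0.0859). Gpam, the first acyltransferase of glycerolipid synthesis, had the smallest p, at 8.46, 12.8 and 7.23 FPKM and 28.7, 38.8 and 20.8 FPKM (adjusted p = 0.0753). In these 4 genes no KO HFD value reached the lowest chow value. The regulators differed: Mlxipl did not overlap, at 41.2, 36.04 and 33.5 FPKM and 42.9, 69.8 and 57.2 FPKM, whereas Srebf1 overlapped at 152, 115 and 62.9 FPKM and 65.7, 125 and 85.4 FPKM. Among 9 elongases and desaturases 0 passed (5 at an unadjusted p under 0.05) and 6 lay wholly below chow (22.0% of all genes), and Elovl5, an elongase of polyunsaturated fatty acids, stood at 82.5, 85.4 and 81.5 FPKM and 199, 156 and 142 FPKM (adjusted p = 0.0754).

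Fatty acid oxidation genes had no common direction. Of 24 tested 0 passed (3 at an unadjusted p under 0.05), 1 lay wholly above (10.1% of all genes) and 3 wholly below chow (22.0%), and the median was 0.22, or 0.08 with the length trend subtracted, with 0.60, −0.06 and −0.30 in KO HFD 1 to 3. Ppara itself stood at 5.91, 19.7 and 9.94 FPKM in KO HFD and 37.1, 35.6 and 21.9 FPKM in KO chow (adjusted p = 0.0915), and its target Cyp4a10, a fatty acid hydroxylase, at 20.9, 11.6 and 10.5 and 59.3, 39.5 and 30.01 FPKM (adjusted p = 0.0754). KO HFD 1 alone held high levels of other inducible targets. Acot1, an acyl-CoA thioesterase, stood at 319, 3.68 and 5.85 FPKM in KO HFD and 14.6, 9.25 and 7.84 FPKM in KO chow. Pdk4, the kinase that shuts off pyruvate dehydrogenase, stood at 18.8, 0.764 and 0.228 FPKM and 0.569, 1.38 and 0.841 FPKM. Without that library the list median was −0.13.

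Lipoprotein genes were mixed. Of 15 tested 0 passed (5 at an unadjusted p under 0.05), 4 lay wholly above (10.1% of all genes) and 2 wholly below chow (22.0%), and the median was 0.36, or 0.04 with the length trend subtracted. The 4 wholly above came to 1 on TPM and to 0 with the length trend subtracted. Mttp, which loads fat onto apolipoprotein B, stood at 23.9, 32.3 and 33.5 FPKM in KO HFD and 58.5, 51.9 and 44.01 FPKM in KO chow (adjusted p = 0.0874), and Apob at 142, 258 and 234 and 389.6, 383 and 261 FPKM. Both lay below chow in every library. Apoc1, a short apolipoprotein that slows lipoprotein clearance, lay above it, at 15465, 17475 and 12156 FPKM and 6757, 7038 and 10672 FPKM (adjusted p = 0.142). Apob is a long gene and Apoc1 a short one, at 13934 and 487 bases.

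Ern1, which encodes the endoplasmic reticulum stress sensor IRE1 alpha, fell from 10.3, 10.9 and 8.31 FPKM to 4.15, 4.26 and 4.18 FPKM (log2 difference −1.05 ± 0.16, adjusted p = 0.0429). It did not pass with the length trend subtracted (adjusted p = 0.0945) or without any 1 of the 6 libraries (0.0531 to 0.272). Of 24 genes of the unfolded protein and stress list 0 passed (7 at an unadjusted p under 0.05) and 7 lay wholly below chow, 29.2% against 22.0% of all genes. Dnajb9, a chaperone induced by that sensor's pathway, stood at 19.3, 22.6 and 22.2 FPKM and 58.4, 44.1 and 35.1 FPKM (adjusted p = 0.0754). Hyou1, a chaperone of the same compartment, stood at 16.9, 13.6 and 20.1 FPKM and 58.1, 39.1 and 26.3 FPKM (adjusted p = 0.0867). In both genes the 3 KO HFD values lay below every chow value. Calr, calreticulin, overlapped between the groups.

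The other genes that fell were Camk1d, a calmodulin-dependent kinase, from 10.3, 13.95 and 10.03 FPKM to 3.86, 4.43 and 4.41 FPKM (adjusted p = 0.0336), and Malat1, an abundant nuclear long noncoding RNA, from 111, 107 and 67.9 FPKM to 28.1, 35.7 and 32.9 FPKM (adjusted p = 0.0422). Both are in the longest class of genes, and both failed the threshold with the length trend subtracted (adjusted p = 0.0793 and 0.0725). Malat1 also failed it without any 1 library other than KO chow 3 (0.0585 to 0.227). Among 18 clock genes 0 passed (8 at an unadjusted p under 0.05), 7 lay wholly below (22.0% of all genes) and 1 wholly above chow (10.1%), and the median was −0.48, or −0.21 with the length trend subtracted. With that trend subtracted 5 lay wholly below, 27.8% against 18.1% of all genes. Bhlhe41, a repressor in the clock, stood at 0.567, 1.68 and 0.997 FPKM and 3.11, 3.65 and 2.88 FPKM (adjusted p = 0.0776), and Nr1d2, a clock nuclear receptor, at 11.2, 16.4 and 11.3 and 22.2, 25.7 and 20.9 FPKM (adjusted p = 0.0867). Dbp, a clock output factor with a steep daily rhythm, showed no such gap, at 81.4, 72.5 and 76.7 FPKM and 78.2, 76.1 and 81.04 FPKM (−0.03 ± 0.15).

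Genes for ribosomal proteins and for the respiratory chain, with median lengths of 1124 and 1588 bases, stood higher in KO HFD by their medians. Of 22 ribosomal protein genes 0 passed (11 at an unadjusted p under 0.05) and 9 lay wholly above chow (10.1% of all genes), with a median of 0.73. With the length trend subtracted 3 lay wholly above chow (13.6% against 5.88% of all genes) and the median was 0.36. Rps19, a small-subunit protein, stood at 228, 100.2 and 102 FPKM and 59.01, 53.8 and 78.9 FPKM (adjusted p = 0.112). KO HFD 1 held by far the highest levels, and without it the median was 0.34. Of 24 nuclear respiratory chain genes 0 passed (9 at an unadjusted p under 0.05). Of these genes 7 lay wholly above chow (29.2% against 10.1% of all genes) and 2 wholly below (8.33% against 22.0%). When the length trend was subtracted 1 lay wholly above (4.17% against 5.88% of all genes), and the median moved from 0.40 to 0.05. Uqcrq, a subunit of complex III, stood at 643, 528 and 513 FPKM and 267, 256 and 426 FPKM (adjusted p = 0.1).

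**Figure D5:**
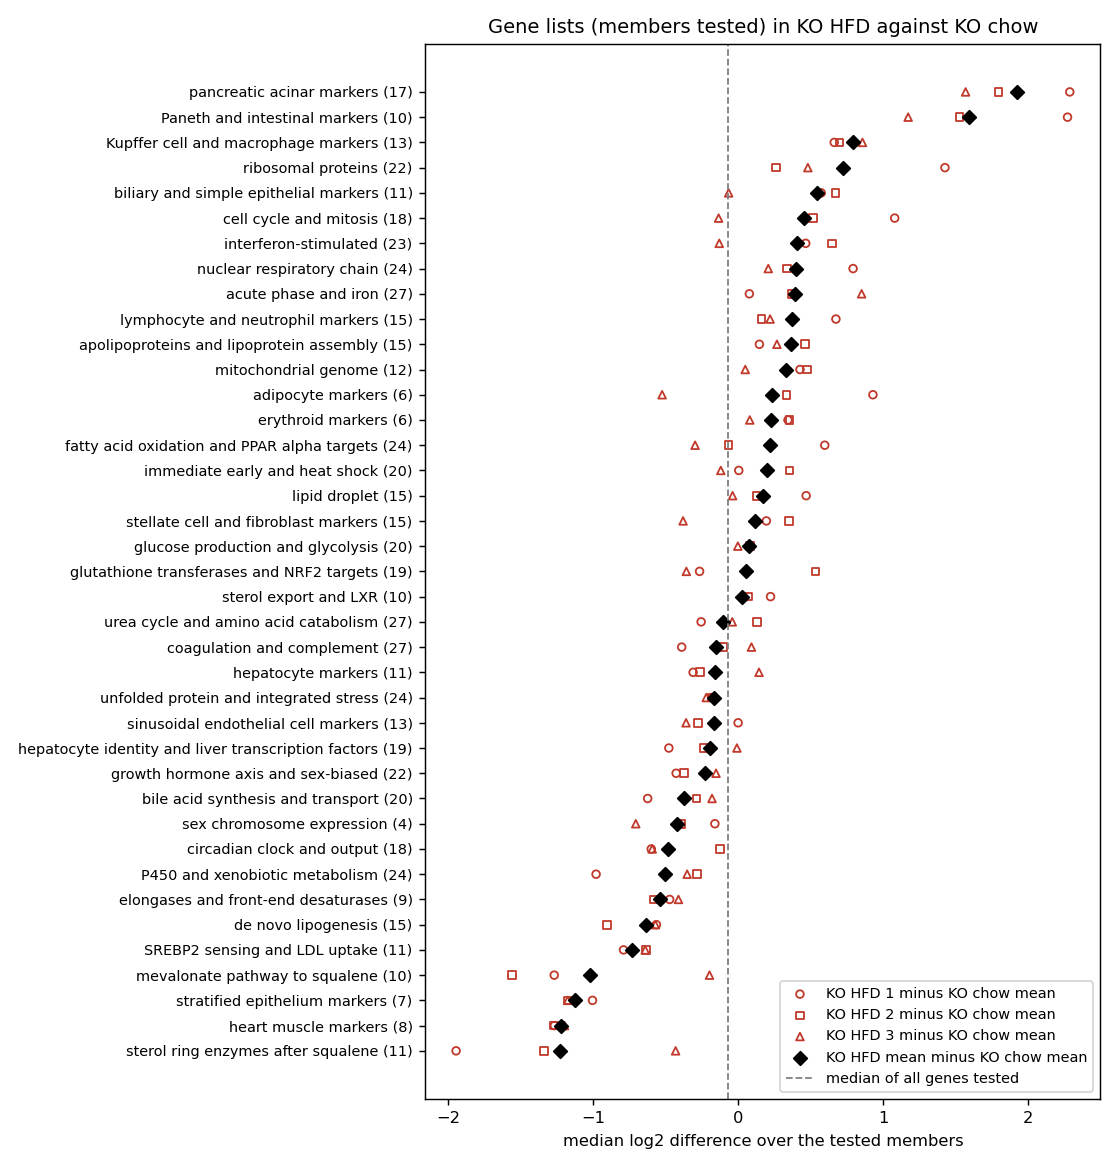
Median log2 difference over the tested members of each gene list (number tested in parentheses). Black diamonds are the KO HFD mean minus the KO chow mean, open red symbols are the single KO HFD libraries, and the dashed line is the median of all 11848 genes, −0.07. Acinar and Paneth markers lie farthest to the right, at 1.92 and 1.60, and sterol ring enzymes and heart markers farthest to the left, at −1.23 and −1.22.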

How the data were processed

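RNA was sequenced from samples given as liver. The deposited values are FPKM computed by the authors for 35275 genes; per the file headers the table also holds each gene's length and coordinates. The tools named in the submitters' processing notes are STAR, TopHat, HTSeq 0.6.1, CASAVA and DESeq2 (version 2), and the builds are mm10 and GRCm38. Which of them made the deposited FPKM, and with what annotation release, strand setting and filters, is not given in the sources used here. All 12 columns were mapped to samples by title, and 0 were left unmapped. Date-like symbols (27) were restored from the identifiers, of which 34490 matched the table of names. FPKM times gene length gave whole reads for 100% of values (tolerance 0.1), from which depth, and a floor of 3 reads over a group without reads, were taken; the floor covers counting error only.

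log2(FPKM + 1) of the 6 libraries was fitted with limma 3.58.1 under R 4.3.3 (trended empirical Bayes) for genes with a mean of at least 0.5 FPKM, with Benjamini-Hochberg adjustment over all 11848 and a threshold of 0.05. On this scale changes of low genes are understated. Hnf4a was compared by an exact permutation test. The fit was tested on simulated data. Genes named and the 42 gene lists (733 genes, 609 tested) were chosen with earlier results of these data known. Named by rule were the 15 highest and 15 lowest log2 differences among called genes with separate groups and at least 1 FPKM in the higher group (no predicted genes), and for each list up to 4 called members and the most abundant other one, or, with none called, up to 3 with the smallest p and the most abundant; further list members are given to show regulators and pathway steps and were picked after their values were seen. No pair of libraries agreed within sampling noise (mean chi-square per gene 45.9 to 127). Alternatives covered pseudocount, filter, scaling, libraries in the fit, weights, a replicate block, limma-voom on recovered reads and, added after seeing the data, removal of the gene length trend (loess span 0.5). A few genes of the lists, counted in them, are not reported here by name. Plots were made in Python 3.11.15 (matplotlib 3.10.9).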

Additional observations from a re-analysis of the deposited data

How the results depend on the processing

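Against 33 genes past the threshold (26 higher, 7 lower), a pseudocount of 0.1 gave 60 (36 and 24), a pseudocount of 0.5 gave 41 (30 and 11), no filter gave 11 (10 and 1), a mean of at least 2 FPKM gave 14 (10 and 4) and TPM gave 861 (63 and 798). Median-of-ratios scaling gave 30 (27 and 3), robust moderation 49 (30 and 19), array weights 1412 (393 and 1019) and limma-voom on recovered reads, with 100% of values whole, 154 (35 and 119). Fits of 12, 10 and 9 libraries gave 21 (21 and 0), 1024 (213 and 811) and 1025 (213 and 812). The 12-library limma fit, which includes WT chow 2 and 3 that stand apart, called 0 genes lower, with 775 lower at an unadjusted p under 0.05; limma-voom on the 6 libraries called 119. With the replicate block 10 passed (9 and 1), 9 of them among the 33. Same-numbered libraries did not deviate together (correlations −0.11, 0.13 and 0.03, against −0.19 to 0.17 for other pairs), so no pairing by number was seen. With 3 libraries per group this cannot exclude it. With the gene length trend removed 25 passed (12 and 13). Leaving out 1 library gave 10 to 81 genes (9 to 47 higher, 1 to 34 lower), and where this left 2 libraries in a group the spread was shared over both groups. The causes of these shifts were not tested. Over 165 named or called genes and 21 settings there were 3429 pairs. The sign changed with a call in either fit in 0 of them, and with no call in either fit in 56. Of 678 calls 176 were lost, and 201 values were newly past the threshold. Quantile normalization gave 32. Hnf4a had a lower mean in KO HFD in all 8 alternatives run for it, by 16.0 to 36.7 FPKM when 1 library was left out. No heart marker was left at a mean of at least 2 FPKM. edgeR and DESeq2 on recovered reads were not run. A gene without reads in a group is limited by the depth of 15705196 to 20311766 reads.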

Other observations

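Some gene lists moved with single libraries. Cell cycle genes (18 tested, 0 past the threshold, 2 at an unadjusted p under 0.05) had medians of 1.08, 0.52 and −0.13 in KO HFD 1 to 3. Of the 18, 1 lay wholly above chow (5.56% against 10.1% of all genes). Mcm6, a subunit of the replicative helicase, stood at 3.94, 5.04 and 1.04 FPKM in KO HFD and 0.896, 0.588 and 0.673 FPKM in KO chow. Mogat1, a glycerolipid acyltransferase, stood at 37.3, 1.23 and 0.277 FPKM and 0.303, 0.641 and 0.8296 FPKM, and Tff2, a gastric trefoil peptide and the only one of 10 gastric markers tested, at 13.4, 0.536 and 0.194 and 0.318, 0 and 0.327 FPKM. In both, KO HFD 1 was far above the other 5 libraries. The 15 lipid droplet genes had a median of 0.18 with 0 past the threshold and 0 at an unadjusted p under 0.05.

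Irs2, an insulin receptor substrate, lay below chow in every KO HFD library, at 0.576, 0.454 and 0.267 FPKM and 0.923, 3.89 and 1.17 FPKM. Glul, the pericentral glutamine synthetase, stood at 288, 348 and 293 FPKM and 497, 462 and 485 FPKM, and Sds, a serine dehydratase, at 147, 109.6 and 82.8 and 44.5, 70.2 and 69.3 FPKM. Onecut2, a liver transcription factor, stood at 4.38, 4.15 and 4.21 FPKM and 9.28, 7.71 and 6.69 FPKM (adjusted p = 0.0817). Abcc2, the canalicular exporter of conjugates, stood at 33.6, 45.6 and 28.1 FPKM and 64.6, 96.3 and 52.9 FPKM. Ifi27l2a, an interferon-induced gene, stood at 21.2, 28.5 and 15.5 FPKM and 2.94, 8.29 and 7.701 FPKM (adjusted p = 0.0754). None of these 6 passed. In each of them no value of one group fell within the range of the other. They were named because their p was among the smallest of their lists, a choice that favours separate groups. Their separation is therefore not compared with the share among all tested genes.

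In the lists not described above 0 members passed, and each had 0 to 5 members at an unadjusted p under 0.05. Beside −0.07 for all genes, their medians were −0.37 for bile acid genes, 0.05 for glutathione transferases, 0.08 for glucose metabolism, −0.11 for urea cycle and amino acid catabolism, −0.19 for liver transcription factors, −0.15 for coagulation and complement, −0.22 for the growth hormone axis, −0.42 for sex-linked genes, 0.41 for interferon-stimulated genes, 0.20 for immediate early genes and 0.33 for the mitochondrial genome. Among markers they were 0.54 for biliary cells, 0.37 for lymphocytes and neutrophils, 0.24 for adipocytes, 0.23 for erythroid cells, 0.12 for stellate cells and −0.17 for sinusoidal endothelium. Under TPM or median-of-ratios scaling the median changed sign for the lipid droplet, glutathione transferase, glucose, urea cycle and stellate lists. With the length trend subtracted it changed sign for the mitochondrial genome (−0.09), lymphocytes and neutrophils (−0.10), erythroid cells (−0.23), glutathione transferases (−0.18) and lipid droplet genes (−0.02), and it was −0.10 for sex-linked genes. Of 12 mitochondrial genome members 5 then lay wholly below chow and 0 above, against 18.1% and 5.88% of all genes. Before the subtraction 1 lay wholly below and 3 above, against 22.0% and 10.1% of all genes. The 2 skeletal muscle markers tested had a median of −0.93.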
